A study of Drosophila melanogaster with 4 samples.

Results

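HP2 enrichment on the euchromatic part of chromosome arm 2L was described from 3 deposited lists of enriched regions, called clusters here. The clusters were chosen by position: those on 2L whose midpoint lay from position 200001 to 21011544 of FlyBase r5 (positions counted from 1), except midpoints from 10150001 to 10500000, where a dense block of clusters lies. These limits leave out the outermost 200 kb and the 2 Mb next to the centromere, and keep 20.5 Mb. Replicate 1 had 508 such clusters out of 4728 in its whole list (10.7%), replicate 2 had 409 of 4163 (9.82%), and the authors' combined list had 698 of 7037 (9.92%).

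The study mapped HP2 by ChIP-seq with the antibody Ab2-90 in head nuclei of wild-type Oregon-R flies, labelled mixed adults, with 2 ChIP samples and 2 inputs. Both groups share strain, genotype and stage, and differ only in the precipitation. Each input was paired by its label with 1 ChIP replicate and entered only through the authors' calls, so no value per input library is given. Heads hold several cell types, and a cluster in bulk nuclei does not show how many of them carry the protein. The lists hold no transcripts, so the labelled tissue could not be checked against markers, and no read counts, so the depth is unknown. Nothing in the labels says that the replicates came from separate fly collections, and the spread between them may be technical.

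HP2 is a nonhistone chromatin protein that binds the chromoshadow domain of heterochromatin protein 1 (HP1), the protein that recognises methylated histone tails in silent chromatin. Loss of HP2 function weakens position-effect variegation, the silencing of a gene placed next to heterochromatin. Both proteins are best known from pericentric chromatin and the small chromosome 4. On the gene-rich arms their binding is scattered, and those scattered sites on 2L are the subject here. No annotation on r5 was used, so the clusters are given by position and not by gene.

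Clusters were sparse on euchromatic 2L. They covered 1.15 Mb (5.63% of the region) in replicate 1 and 0.897 Mb (4.38%) in replicate 2, a mean of 5.01% ± 0.88 (SD, n = 2). There were 24.8 clusters per Mb in replicate 1 and 20.0 in replicate 2. Replicate 1 thus held more sites, and its clusters were only slightly longer. The combined list covered 7.44% with 34.1 clusters per Mb. Clusters never overlapped within a list.

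The clusters next to each limit were as follows. At the telomere-side limit, the first cluster inside the region scored 0.363 in replicate 1 and 0.530 in replicate 2, and the last one outside 0.297 and 0.813. At the centromere-side limit these scores were 0.553 and 0.586 inside, and 0.252 and 0.346 outside. At the start of the block, the last cluster inside the region scored 0.377 in replicate 1 and 0.615 in replicate 2, and the first one in the block 0.699 and 0.391. At its end, the first cluster back in the region scored 1.23 and 1.31, and the last one in the block 0.788 and 0.459. The score is a positive number that the authors gave each cluster, on a scale that no source used here states. The block was left out because it is dense: clusters took up 38.5% of it in replicate 1 and 36.9% in replicate 2, with 34 of them in each.

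Cluster lengths gathered around a main peak. Their median lengths were 2085 bp in replicate 1 and 2066 bp in replicate 2, and the middle 50% of clusters lay between 1903 and 2363 bp and between 1892 and 2251 bp. Lengths over 1900 and up to 2300 bp, a band chosen after the lengths were seen, held 243 clusters of replicate 1 (47.8%) and 215 of replicate 2 (52.6%). The shortest clusters measured 1304 and 1301 bp, nearly the same floor in both lists. Long clusters were few: 23 in replicate 1 and 12 in replicate 2 reached 4000 bp, and the longest measured 6501 and 6255 bp. The class from 3101 to 3300 bp, picked out from these counts, held 17 clusters in replicate 1 and 13 in replicate 2. The class below it, from 2901 to 3100 bp, held 9 and 7, and that above it, to 3500 bp, 9 and 10. These counts are small, and whether they mark a second rise was not tested. In the dense block the median length was 3173.5 bp and 2889.5 bp.

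**Figure D1:**
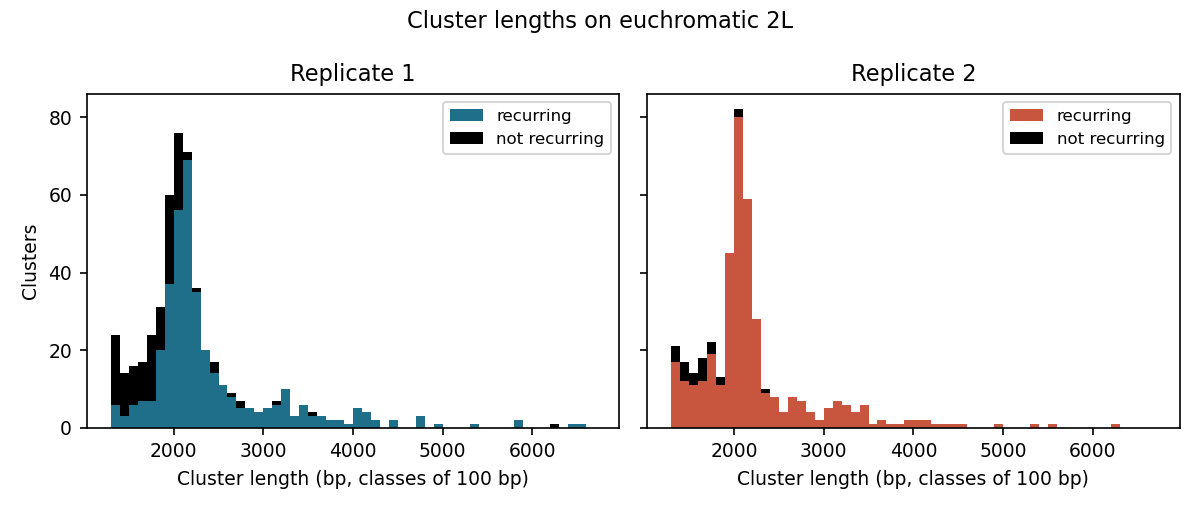
Numbers of clusters (y axis) by length in classes of 100 bp (x axis) in each replicate, with recurring clusters coloured and those not recurring in the other replicate in black. Both replicates peak in the band of over 1900 to 2300 bp, and the black part sits mostly at or below the peak.

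The score varied far more than the length. Its median was 0.613 in replicate 1 and 0.620 in replicate 2, and its range 0.120 to 3.15 and 0.193 to 2.82. Clusters in that band alone spanned scores from 0.300 to 3.15 in replicate 1 and from 0.309 to 2.82 in replicate 2. Inside it a higher score went with a greater length, with a Spearman rho of 0.83 in both replicates (243 and 215 clusters, which share a library and a caller). Within the lengths on either side of the band the relation was near 0 or slightly negative: rho was -0.12 in both replicates up to 1900 bp, and -0.01 and -0.11 above 2300 bp. Over all clusters rho was 0.78 in replicate 1 and 0.80 in replicate 2, and scores also differed between the length classes. Of the clusters up to 1900 bp, 0 of 126 in replicate 1 and 0 of 105 in replicate 2 scored 1 or more. Over 2300 bp, 64 of 139 (46.0%) and 45 of 89 (50.6%) did.

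High scores were not confined to long clusters: of the 6 highest, 3 belonged to clusters of at most 2300 bp. The highest score belonged to a cluster of 2275 bp at chr2L:3661390-3663664, with 3.15 in replicate 1 and 2.82 in replicate 2. It stood alone, 28202 bp from its nearest neighbour, and 146 clusters of replicate 1 were longer. The second, chr2L:11167766-11170039, measured 2274 bp and scored 2.85 and 2.23. The third, chr2L:9698172-9701708, lay 448 kb before the block and scored 2.37 and 2.45.

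The next 3 by score were chr2L:15226525-15228732 with 2.25 in replicate 1 and 1.49 in replicate 2, chr2L:18706912-18709902 with 2.20 and 2.09, and chr2L:7983127-7986369 with 2.11 and 1.83. Replicate 2 called each of the 6 as 1 cluster that covered at least 92.4% of it. Of these 6, 5 scored higher in replicate 1, whose list chose them. The combined list held all 6 as well, scoring from 1.88 to 2.99. Among the 50 highest scores, 22 clusters in replicate 1 and 25 in replicate 2 measured at most 2300 bp, and the shortest measured 2104 and 2101 bp. Of all clusters only 27.4% in replicate 1 and 21.8% in replicate 2 were longer than 2300 bp. Longer clusters were thus more frequent among the 50 highest scores than in the lists as a whole.

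The 6 longest recurring clusters scored from 0.624 to 1.51 in replicate 1. The longest of all, chr2L:11803827-11810327, measured 6501 bp and scored 0.624 in replicate 1. Replicate 2 called 2 clusters there, which covered 75.4% of it, and the higher of them scored 0.543. The second, chr2L:5978171-5984573, measured 6403 bp and scored 0.962, against 0.948 for the cluster of 4573 bp in replicate 2. Only 40 bp separated it from its neighbour in replicate 1, and the combined list joined both into its longest cluster of 9335 bp.

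Further long clusters of this set were each called as 1 cluster in replicate 2, but recurrence was a condition for being named. That at chr2L:16283610-16289474 measured 5865 bp in replicate 1 and 6255 bp in replicate 2, with scores of 0.948 and 0.793. The cluster chr2L:7422316-7428139 had lengths of 5824 and 5523 bp, and scores of 1.51 and 1.42. The remaining 2 of the 6 longest recurring clusters were chr2L:20082060-20087412 with scores of 0.996 and 0.682, and chr2L:4809314-4814311 with 0.813 and 0.594. A cluster of 6288 bp in replicate 1, chr2L:16726809-16733096 with a score of 0.620, fell outside this set. Replicate 2 called a cluster of 3131 bp there with a score of 0.737, which covered 49.8% of it, just under the 50% required.

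Spacing between neighbours was very uneven. The median gap from the end of a cluster to the start of the next in replicate 1 was 14585 bp, and that in replicate 2 was 18892 bp. The mean gap was 37689 bp and 47471 bp. The SD of the gaps was 1.54 and 1.58 times their mean. At the short end, 127 of 506 gaps in replicate 1 (25.1%) and 89 of 407 in replicate 2 (21.9%) were at most 5 kb, and 35 and 26 were at most 1 kb. At the long end, 57 and 63 gaps exceeded 100 kb, and together these took up 47.9% and 57.4% of the region. Much of euchromatic 2L thus lay in long stretches with no called HP2 in each replicate's list. In the combined list, 48 gaps over 100 kb took up less of the region, 37.8%.

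**Figure D2:**
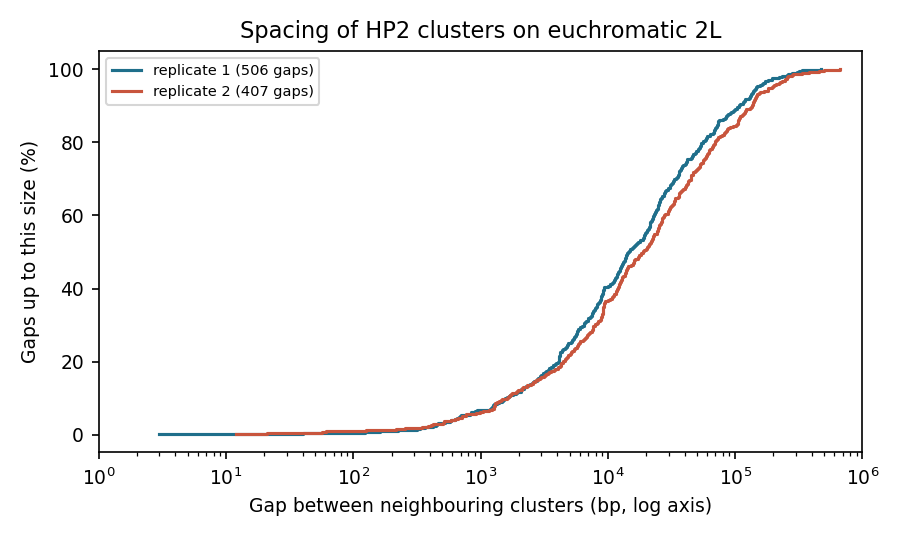
Cumulative percentage of gaps (y axis) up to a given size (x axis, bp, log scale) between neighbouring clusters in replicate 1 (506 gaps) and replicate 2 (407 gaps). Both curves rise over a wide range of sizes, and the curve of replicate 2, which has fewer clusters, lies to the right for the larger gaps.

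The stretches free of clusters in both replicates were long. The longest ran from 16911349 to 17383156 (472 kb), and the combined list held 0 clusters there too. The next were 3813821 to 4186652 (373 kb), 4459771 to 4793638 (334 kb) and 14689911 to 15004598 (315 kb), each with 1 cluster in the combined list. The fifth, 1305215 to 1613127 (308 kb), held 2. No call in a stretch means only that it did not pass the authors' limit, and HP2 may still bind there.

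Many clusters stood in small groups. Joined where the gap was at most 5 kb, the 508 clusters of replicate 1 formed 293 single clusters, 60 pairs, 22 groups of 3 and 6 groups of 4 or more. In replicate 2 the 409 clusters gave 256 single clusters, 47 pairs, 13 groups of 3 and 4 of 4 or more. Clusters in groups made up 42.3% and 37.4%, a mean of 39.9% ± 3.48 (SD, n = 2). This share followed the joining distance, from 21.3% at 2 kb to 74.5% at 20 kb.

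Grouped and single clusters were much alike in their medians. The 90th percentile of length was higher in groups. In replicate 1 it was 3006 bp for single clusters, 3115 bp in pairs and 3613 bp in larger groups. In replicate 2 it was 2943, 3207 and 3237 bp. In replicate 1 the median length was 2065 bp for single clusters, 2106.5 bp in pairs and 2194 bp in larger groups, with median scores of 0.594, 0.623 and 0.654. In replicate 2 the lengths were 2050, 2081 and 2076 bp, and the scores 0.615, 0.683 and 0.618, so the order of the larger groups was not kept. The scores of neighbours showed little relation: over pairs of neighbours at most 5 kb apart, Spearman's rho was 0.06 in replicate 1 (127 pairs) and 0.03 in replicate 2 (89 pairs).

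The largest groups recurred to different degrees. The group from 11987045 to 12013105 held 6 clusters in replicate 1, all recurring, over 26061 bp, of which 74.5% was in clusters. Replicate 2 had 8 clusters there and covered 75.6%, and their scores ran from 0.385 to 1.01 against 0.692 to 1.07 in replicate 1. A second group of 6, from 19002612 to 19028154, recurred less fully. Replicate 2 called 3 of its clusters, among them the strongest, chr2L:19008262-19010449, with 1.61 in replicate 1 and 1.63 in replicate 2. The third group, from 20082060 to 20105769, held 5 clusters in replicate 1, of which 4 recurred.

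Clusters per window of 100 kb varied more than their mean. Over the 204 full windows the mean was 2.49 in replicate 1 and 2.00 in replicate 2, and the variance was 1.93 and 1.74 times the mean, a ratio that is 1 for Poisson counts. No cluster fell in 38 and 53 windows, and 37 of these were the same windows. At the other end, 33 windows in replicate 1 and 22 in replicate 2 held 5 or more clusters, 17 of them in both. Covered share per window had a Pearson r of 0.94 and a Spearman rho of 0.93 between the replicates over these 204 windows, which share the genome's mappability and the caller.

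The densest window, from 6900001 to 7000000, was 25.8% covered with 11 clusters in replicate 1 and 22.7% with 10 in replicate 2. Its clusters scored between 0.274 and 1.53 and between 0.342 and 1.48, and 10 of the 11 recurred. The single one that did not had the lowest score, 0.274. Windows were ranked by the mean coverage of both replicates, and the order within replicate 1 alone differed. Next by that mean came the window from 12000001 to 12100000, covered at 20.6% and 15.4%, and that from 5000001 to 5100000 at 21.0% and 14.6%. Among the 5 densest, the window from 6000001 to 6100000 differed most between the replicates, with 22.6% and 11 clusters against 12.2% and 6. The fifth, from 2100001 to 2200000, was covered at 17.6% and 15.8% with 6 clusters in each. The median window was 4.33% and 3.24% covered.

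**Figure D3:**
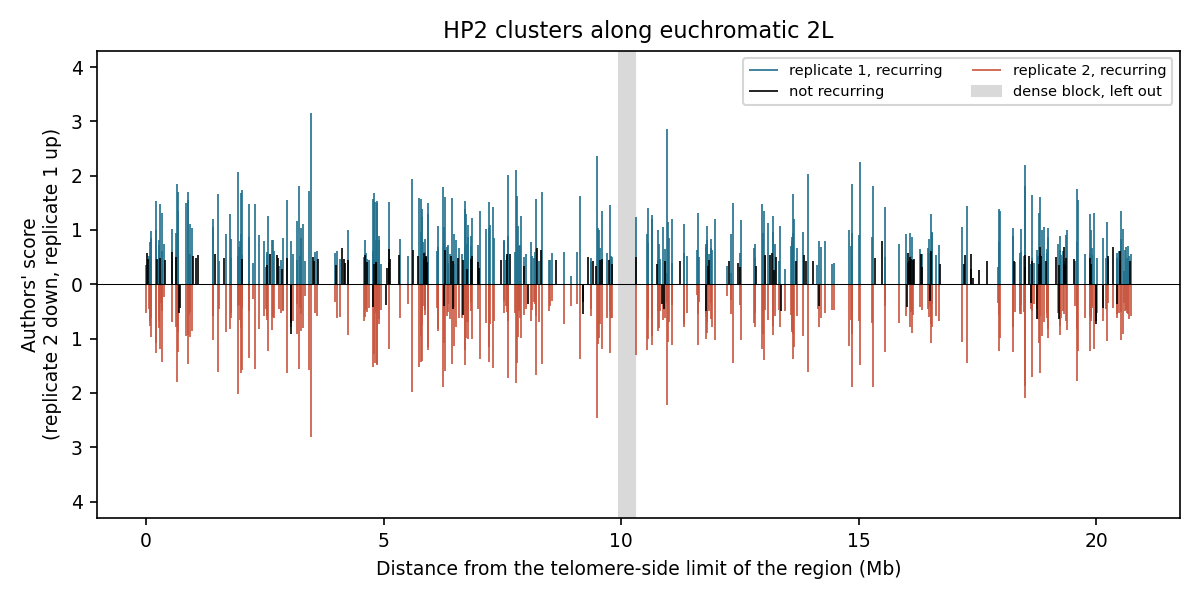
Authors' score (y axis, replicate 1 upward, replicate 2 downward) of each cluster against its distance in Mb from the telomere-side limit of the region (x axis). Coloured lines recur in the other replicate, black lines do not, and the grey band is the block left out; black lines reach at most 0.919.

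On the scale of 1 Mb, density rose and fell several times along the arm with no single trend. The highest coverage lay from 6200001 to 7200000, at 9.45% with 42 clusters in replicate 1 and 7.85% with 36 in replicate 2. The bin from 18500001 to 19500000 followed at 9.11% and 6.85%, and the first bin, from 200001 to 1200000, at 8.29% and 6.89%. Lowest were the bins from 17500001 to 18500000, at 2.67% with 13 clusters and 1.50% with 7, and from 14500001 to 15500000, at 2.59% and 2.44% with 11 clusters in each. The order of the lowest pair thus differed between the replicates, as did that of the pair after the highest bin.

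Both sides of the block were occupied, the telomere side slightly more in each replicate. Coverage on the telomere side was 6.07% in replicate 1 and 4.71% in replicate 2. On the centromere side it was 5.22% and 4.08%. Clusters per Mb had the same order, with 26.7 against 23.0 in replicate 1 and 21.3 against 18.7 in replicate 2. The replicates differed by more than the sides did. Replicate 1 was higher on both sides, however, so that spread does not measure the difference between the sides. Next to the block, the 500 kb before it was 5.90% and 4.40% covered and the 500 kb after it 6.36% and 5.44%, against 5.63% and 4.38% for the whole region.

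A cluster was counted as recurring when the other replicate's clusters covered 50% of it or more. In replicate 1, 376 of 508 clusters recurred (74.0%, 95% Wilson interval 70.0% to 77.6%), against 74.3% of its whole list. In replicate 2, 383 of 409 recurred (93.6%, 90.8% to 95.6%), against 83.5% of its whole list, which includes the heterochromatic parts. The euchromatic parts of 3L, 3R and X gave 91.0% to 94.9% there. The share in replicate 1 was near that background. The intervals cover counting error only, and clusters of 1 library are not replicates. The shared bases, 0.831 Mb, were 72.2% of the bases called in replicate 1, 92.7% of those called in replicate 2 and 68.3% of those called in at least 1 of them.

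Recurrence in replicate 1 went with the score. It was 47.1% (37.7% to 56.7%) in the lowest of 5 equal classes of score and 47.5% in the next, then 76.5%, 99.0% and 100% (96.4% to 100%) in the highest. The highest 2 of these classes, which begin at a score of 0.736, together held 203 clusters, of which 202 recurred. In replicate 2 the steps were 82.9%, 92.7%, 96.3%, 96.3% and 100%. By length, recurrence in replicate 1 was 32.4% in the shortest of 5 equal classes (1304 to 1823 bp) and 96.0% and 94.1% in the longest 2, and in replicate 2 it was 74.4% in the shortest class and 100% in the longest.

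Score and length were not separated by a split within the length band. Among clusters of over 1900 and up to 2300 bp in replicate 1, 77 of 121 below their median score recurred (63.6%, 54.8% to 71.7%) and 120 of 122 at or above it (98.4%, 94.2% to 99.5%). Their median lengths were 2004 and 2147 bp. In replicate 2 the same groups gave 100% and 98.1%.

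By distance to the nearest neighbour, recurrence spanned less. In replicate 1, 77.2% (71.2% to 82.3%) of clusters with a neighbour within 5 kb recurred, 72.3% of those with one at over 5 to 50 kb, and 65.5% (47.3% to 80.1%) of the 29 farther away. In replicate 2 the shares were 95.4%, 91.7% and 97.4%. The intervals overlapped in both replicates. Recurrence was similar on both sides of the block, at 74.1% and 74.0% in replicate 1 and 94.3% and 92.9% in replicate 2.

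**Figure D4:**
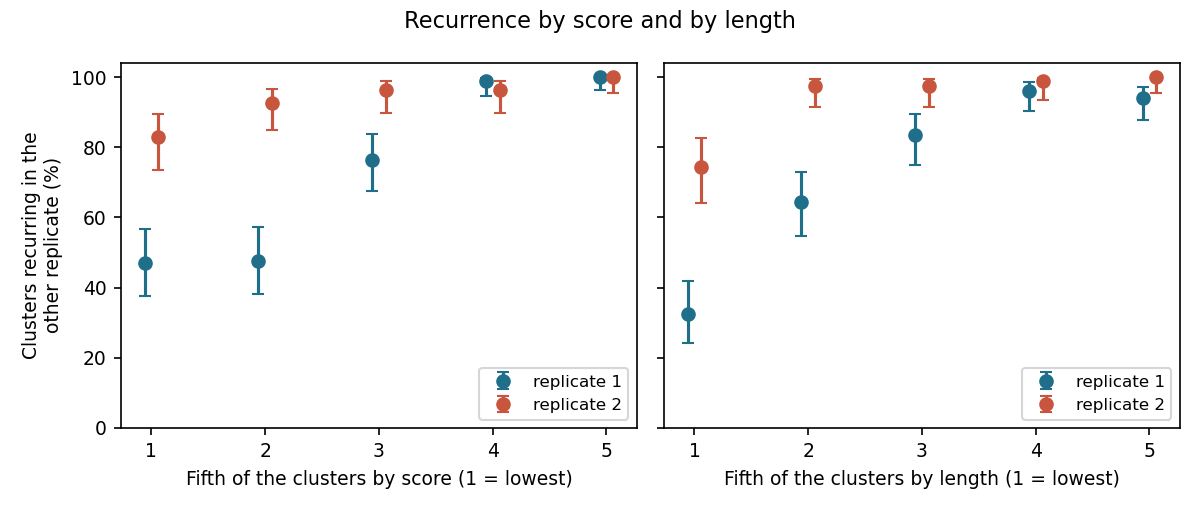
Percentage of clusters that recur in the other replicate (y axis) by 5 equal classes of score (left) and of length (right), the lowest first; bars are 95% Wilson intervals. Replicate 1 rises from 47.1% to 100% by score and from 32.4% to 94.1% by length, and replicate 2 stays at 74.4% or more.

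Clusters seen in 1 replicate only were weak. Replicate 1 had 129 that touched no cluster of replicate 2, with a median score of 0.463 and a median length of 1793 bp, against 0.780 and 2154.5 bp for recurring ones. Replicate 2 had 26, with medians of 0.443 and 1607.5 bp against 0.632 and 2076 bp. Only 3 clusters of replicate 1, and 0 of replicate 2, were touched over less than 50% of their bases. Recurring clusters of replicate 1 were often covered in part: 268 of 376 (71.3%) were covered to 90% or more, against 355 of 383 (92.7%) in replicate 2. The clusters of replicate 1 without a partner lay a median of 10950 bp from the nearest cluster of replicate 2, and 38 (29.5%) lay within 5 kb of one.

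The strongest clusters without a partner were still well below the strongest shared ones. In replicate 1 they were chr2L:15681721-15683466 with a score of 0.795, chr2L:19013942-19016183 with 0.696 and chr2L:19517851-19520282 with 0.691. In replicate 2 they were chr2L:3252040-3254084 with 0.919, chr2L:20195572-20196989 with 0.727 and chr2L:3254602-3256674 with 0.710. The clusters with 0.919 and 0.710 are neighbours, 517 bp apart. The combined list covered at least 93.1% of each of the 6, with scores between 0.473 and 0.692.

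Where both replicates called a site, they placed it closely. One-to-one matches, with an overlap of at least 50% of both, numbered 373. The median offset was 55 bp at the start and 58 bp at the end, and in 180 (48.3%) both ends lay within 100 bp. The midpoints shifted by a median of 52.5 bp, and by 268.5 bp at the 90th percentile. The requirement of overlap itself limits these offsets. Clusters of replicate 2 were shorter in 277 pairs (74.3%), by a median of 75 bp over all pairs, and in 185 pairs (49.6%) the cluster of replicate 2 lay wholly inside that of replicate 1.

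Their scores kept much of their order. Spearman's rho between the replicates was 0.87 over the 373 pairs, which share genome, antibody and caller, and 31 of the 37 highest scores of either replicate were among the 37 highest of the other. Scores were lower in replicate 2 in most pairs: it scored higher in 119 (31.9%). The median score of the matched clusters was 0.781 in replicate 1 and 0.645 in replicate 2, although the medians of all clusters were nearly equal. Replicate 1 also held the 129 clusters without a partner, with their lower median of 0.463.

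**Figure D5:**
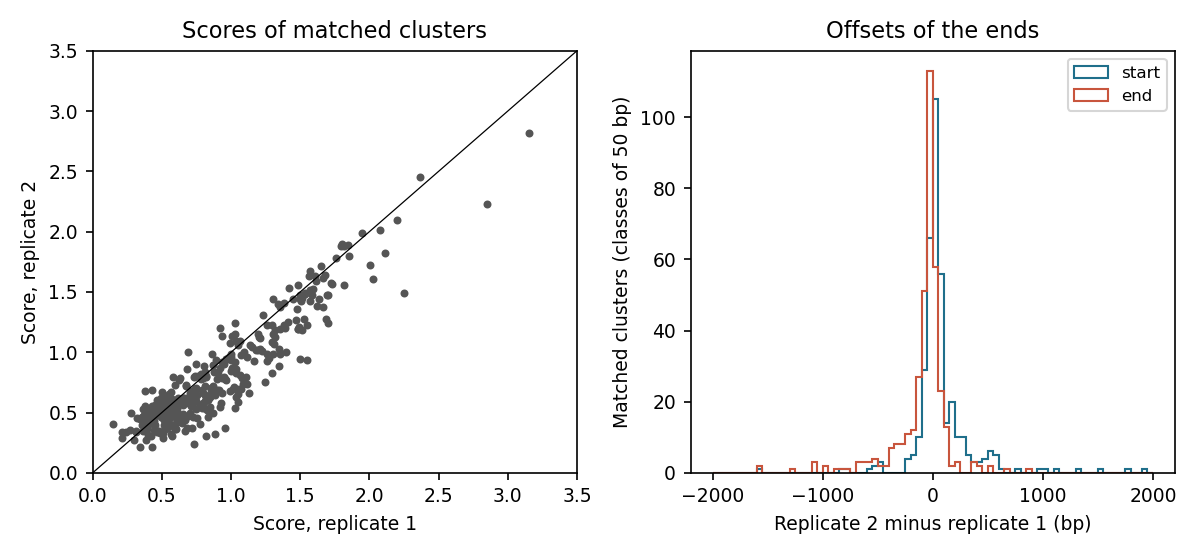
Left, score of 373 matched clusters in replicate 2 (y axis) against replicate 1 (x axis) with the line of equality; most points lie below it. Right, numbers of matched clusters (y axis) by the offset of their start and end, replicate 2 minus replicate 1 in bp (x axis); starts lean to the right and ends to the left of 0.

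The combined list added weak, short sites. Of its 698 clusters, 373 touched both replicates (53.4%, 49.7% to 57.1%), against 46.4% over the whole list. Another 126 touched replicate 1 only and 23 replicate 2 only. The remaining 176 touched neither (25.2%, 22.1% to 28.6%), against 31.4% over the whole list. These 176 had a median length of 1292 bp and a median score of 0.347, and 90 of them (51.1%) were shorter than any cluster in the replicates' lists. Those touching both had medians of 2267 bp and 0.653. Of the clusters of replicate 1 without a partner, 125 of 129 were at least 50% contained in the combined list, as were 26 of 26 in replicate 2.

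Euchromatic 2L was set beside 3L, 3R and X, each without its outer 200 kb and its proximal 2 Mb. An exact permutation over 4 arms cannot go below p = 0.25, so ranks are given without a test. Coverage was 5.01% ± 0.88 (SD, n = 2) on 2L, 5.09% ± 0.97 on 3R, 5.56% ± 1.10 on 3L and 6.90% ± 1.59 on X. Thus 2L ranked last in each replicate, by a small margin from 3R. Within replicate 1 coverage was 5.63% on 2L, 5.78% on 3R and 6.34% on 3L. Within replicate 2 it was 4.38%, 4.41% and 4.78%. Replicate 1 was higher on every arm, so the SDs do not measure the differences between arms. With its dense block kept in, 2L reached 5.56% and passed 3R; dense stretches of the other arms were not left out.

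Median lengths were close on the 4 arms, while scores were higher on X. The mean of the replicates' median lengths ran from 2041 bp on X to 2075.5 bp on 2L, and the median scores were 0.617 on 2L, 0.603 on 3L, 0.604 on 3R and 0.716 on X. Measures of spacing ranked 2L differently. The SD of its gaps was 1.56 ± 0.02 times their mean (SD, n = 2), close to X at 1.58 ± 0.05, against 1.47 ± 0.09 on 3L and 1.27 ± 0.06 on 3R. The variance over mean of clusters per 100 kb had the same order, with 1.83 ± 0.14 on 2L, 1.99 ± 0.09 on X, 1.68 ± 0.10 on 3L and 1.46 ± 0.13 on 3R. On both measures 2L was above 3R within each replicate. By short gaps and groups, 2L ranked 3 of 4: gaps of at most 5 kb made up 23.5% ± 2.29 on 2L, 29.6% ± 2.92 on X, 24.6% ± 2.61 on 3L and 17.9% ± 2.36 on 3R (SD, n = 2). Clusters in groups made up 39.9% ± 3.48, 50.7% ± 3.26, 43.4% ± 3.72 and 32.0% ± 3.86 on the same arms. Recurrence was high in replicate 2 on every one of them, with 93.6% on 2L, 94.9% on 3L, 93.1% on 3R and 91.0% on X, and in replicate 1 it was 74.0%, 72.5%, 72.3% and 67.2%.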

How the data were processed

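HP2 ChIP-seq was done in 2 ChIP samples, each with its own input. Bowtie 0.12.7 aligned the reads, per the submitters' processing notes. The deposited lists give the start, end and 1 score of each region of significant enrichment, on FlyBase r5, per the file headers. No source used here names the caller or its cutoff, or says how the combined list was made, and the score was used only to rank, filter and describe. Grouping and replicate numbers came from the titles. From the lists, gaps, groups (joined within 5 kb), counts in 100 kb windows, overlap and one-to-one matches were computed in Python 3.11.15 with pandas 2.3.3, scipy 1.17.1 and numpy 2.4.6. The functions were tested on simulated lists with known answers. Windows and gaps did not cross the block left out. No cluster here was trimmed. Means over the replicates carry the SD (n = 2), shares of clusters have 95% Wilson intervals, and no test over samples was possible with 1 group of 2.

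Regions named are the 6 longest and the 6 highest-scoring recurring clusters of replicate 1, the 3 highest-scoring clusters of each replicate without a partner, the 5 longest gaps, the 5 densest windows and the 3 largest groups. The region, the block and these lists were chosen with earlier results of these data known. Alternatives were the clusters scoring no lower than the median of their own whole list, the combined list, each replicate alone, other limits, joining distances, windows and overlaps. No annotation or genome on r5 was used, so no genes or sequences are given.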

Additional observations from a re-analysis of the deposited data

How the results depend on the processing

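A filter kept the clusters that scored no lower than the median of their own whole list. These medians were 0.719 in replicate 1 and 0.717 in replicate 2. With this filter, the mean number of 458.5 per replicate became 184, coverage 2.34%, median length 2269 bp, median gap 54282.5 bp, gaps of at most 5 kb 13.4%, clusters in groups 25.0%, the variance over mean per window 1.41 and coverage of 2L relative to the other arms 0.782 (from 0.859). Recurrence of these clusters, counted against the other replicate's full list, was 99.5% in replicate 1 and 98.8% in replicate 2. In the combined list the number was 698, coverage 7.44%, median length 2047 bp, median gap 9311 bp, short gaps 32.8%, clusters in groups 53.3%, the variance over mean 2.16 and relative coverage 0.822. Fewer or more clusters change gaps and groups by construction; for the lengths and arms the cause was not tested. Merging clusters within 1 kb gave a median gap of 20537 bp and 18.0% short gaps. Joining within 2, 10 or 20 kb put 21.3%, 60.9% or 74.5% in groups, and windows of 50 kb gave a variance over mean of 1.60. Requiring 80% of bases gave recurrence of 63.6% and 90.0%, and matches at 80% of both gave offsets of 47 and 49 bp and a rho of 0.88. With the block kept in, relative coverage was 0.955 and 2L ranked 3 of 4. Leaving out the 1 Mb next to the proximal part moved none of the 9 results it was run on past its spread or interval. With 2 replicates, each alone lies within 1 SD of their mean by construction; they gave 409 to 508 clusters, 4.38% to 5.63% coverage, median lengths of 2066 to 2085 bp, median gaps of 14585 to 18892 bp, short gaps of 21.9% to 25.1%, groups of 37.4% to 42.3%, a variance over mean of 1.74 to 1.93 and relative coverage of 0.838 to 0.879. No paired analysis was possible because the ChIP replicates form 1 group and the inputs have no values of their own in these lists.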

Other observations

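In most closely spaced pairs both members recurred, with recurrence over all clusters at 74.0% in replicate 1 and 93.6% in replicate 2. The share of pairs that these rates alone would give was not computed. Of the 35 neighbouring pairs at most 1 kb apart in replicate 1, both members recurred in 23 and 1 member in 9, and a single cluster of replicate 2 bridged 1 pair. In replicate 2, both members recurred in 21 of 26 such pairs and a single cluster of replicate 1 bridged 4. Bridged pairs, which the other list did not call separately, can also count among those with both members recurring. Over all clusters, only 5 of replicate 1 touched 2 clusters of replicate 2, and 1 cluster of replicate 2 touched 2 of replicate 1. The combined list joined 2 clusters of replicate 1 in 8 cases and 2 of replicate 2 in 13.

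A few clusters of the combined list had high scores although neither replicate's list held them, and they were picked out after their values were seen. The highest, chr2L:1005026-1006130, measured 1105 bp and scored 1.29, against a median of 0.347 for the 176 combined clusters that touched neither replicate. Next came chr2L:20185300-20186312 with 0.912 and chr2L:10142346-10143600 with 0.880, the latter at the edge of the dense block. All 3 were shorter than any cluster in the replicates' lists.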
